A study of Homo sapiens with 6 samples.

Results

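The imprinted DLK1-DIO3 region on human chromosome 14, band 14q32, holds a long run of miRNA genes. A list of 45 miRNA names from this region was matched to the table of mature miRNAs by name, with or without a copy number and an arm (5p or 3p). The match used no measured value, but the cluster was taken up with earlier results of these data known. The match gave 55 of the 1155 mature miRNAs listed, from 35 of the 45 names. The other 10 names (miR-136, miR-337, miR-370, miR-410, miR-431, miR-433, miR-496, miR-656, miR-665 and miR-770) had no row and are not analysed here. The members (names prefixed hsa- in the table) were measured by small RNA sequencing in 6 samples of U2OS, a long-established cell line from a human osteosarcoma. By genotype label 3 samples were LINC00673, which per the series text stably carry an shRNA against the long noncoding RNA LINC00673, and the other 3 were NC. The series text calls the cells they were set against wild type, while the labels do not say whether NC cells carried a control construct, and the sample titles of both groups begin with Lv. Whether the shRNA cells are a pool or a single clone is not stated, and LINC00673 itself is not a miRNA, so the knockdown could not be checked in these data.

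In this region the protein-coding genes DLK1, RTL1 and DIO3 are expressed from the paternal chromosome. The noncoding transcripts MEG3, MEG8 and MEG9 and the miRNAs are expressed from the maternal one. The miRNAs lie in 2 blocks, a small one between MEG3 and the antisense strand of RTL1, and a large one, the miR-379/miR-410 cluster, further towards DIO3. They are known for high expression in brain, placenta and embryonic tissue, and in osteosarcoma tumours they have been reported at lower levels than in bone. A mature miRNA pairs with target mRNAs mainly through its seed (bases 2 to 8), and either arm of the hairpin precursor may be retained.

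All 55 members matched a mature sequence in RefSeq (GRCh38.p14). The following 13 are some of the members to which the results return, shown for their level, their separation between the groups or their near-identity to each other. Other members given with values, such as miR-380-5p and miR-655-3p, are not shown. Capitals mark the seed, and all are written 5′ to 3′.
miR-379-5p: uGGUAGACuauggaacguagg
miR-411-5p: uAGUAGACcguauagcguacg
miR-382-5p: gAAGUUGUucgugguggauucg
miR-409-3p: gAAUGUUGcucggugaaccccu
miR-134-5p: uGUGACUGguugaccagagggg
miR-323a-3p: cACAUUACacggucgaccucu
miR-323b-3p: cCCAAUACacggucgaccucuu
miR-381-3p: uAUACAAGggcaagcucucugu
miR-376a-3p: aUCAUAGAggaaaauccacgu
miR-376b-3p: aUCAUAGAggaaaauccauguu
miR-376c-3p: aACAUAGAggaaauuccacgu
miR-654-3p: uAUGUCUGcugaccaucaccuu
miR-299-5p: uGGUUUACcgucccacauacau

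The 55 members carried 49 distinct seeds, and 6 seeds were each shared by a pair of members. The level behind these pairs was highest for UCAUAGA, shared by miR-376a-3p and miR-376b-3p, at a mean of 42.4 CPM (reads scaled to a common total). The other shared seeds were UCAUACA in miR-539-3p and miR-485-3p, GUGGAUA in miR-376b-5p and miR-376c-5p, UAUACAG in both miR-1185 3p copies, UGGUUAU in miR-487a-5p and miR-487b-5p, and AUGUAAC in miR-379-3p and miR-411-3p. Against miR-376a-3p, miR-376c-3p carried 2 substitutions, U2A in the seed and A14U outside it, counted from the 5′ end of miR-376a-3p. Against miR-379-5p, its cluster neighbour miR-411-5p carried 7 substitutions, of which G2A alone fell in the seed. Outside the cluster, miR-3529-5p had the seed of miR-379-5p and miR-3118 that of miR-134-5p. A 5′ uridine, the base most often found at the start of human miRNAs, began 36.4% of the 55 members, against 41.6% of the 962 other listed miRNAs with a RefSeq sequence. The median GC content was 45.5% for the members and 50% for the others.

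The table gives CPM, and dividing each value by the worth of 1 read gave a whole number to within 0.1 read. The denominators were 380298, 742349 and 762663 reads in LINC00673 samples 1, 2 and 3, against 483322, 311448 and 295567 reads in NC samples 1, 2 and 3. NC samples 2 and 3 were therefore the shallowest, and a floor of 3 reads came to 3.93 to 7.89 CPM in LINC00673 samples and 6.21 to 10.2 CPM in NC samples. No pair of samples agreed within sampling noise, although LINC00673 samples 2 and 3 were the closest (chi-square per degree of freedom 2.73, against 12.6 to 73.4 for the other 14 pairs). Pairs within NC gave 20.3 to 55.9 and pairs between the groups 19.8 to 73.4, so these ranges overlapped. NC sample 3 was closer to each LINC00673 sample (19.8 to 20.55) than to the other NC samples (26.4 and 55.9). The check of cell identity gave a high sum of mesenchymal and stromal miRNAs in every sample. All 10 of the list were present, at a summed 201045 to 228162 CPM in LINC00673 cells and 152470 to 222034 CPM in NC cells. The sum does not show how the level divides among the 10. The 5 epithelial markers summed to 2.63 to 21.0 CPM in LINC00673 cells and 16.1 to 23.7 CPM in NC cells, and the 3 muscle markers to 34.2 to 40.6 CPM in LINC00673 cells and 37.2 to 73.9 CPM in NC cells. The blood cell markers with a row, 2 of 5, summed to 171 to 205 CPM in LINC00673 cells and 139 to 213 CPM in NC cells, while miR-223-3p, miR-150-5p and miR-451a have no row and are not analysed here. The 2 endothelial markers summed to 3676 to 4937 CPM in LINC00673 cells and 4344 to 6654 CPM in NC cells, and the neural marker with a row, 1 of 2, to 2027 to 2141 CPM in LINC00673 cells and 1820 to 2106 CPM in NC cells. The liver marker, miR-122-5p, stood at 14.8 to 15.8 CPM in LINC00673 cells and 9.63 to 20.3 CPM in NC cells. Their part in the results was not tested. The labels do not state that the 3 samples of a group are separate cultures, so each p-value reflects a spread that may be only technical.

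The members held 3449 reads in all, 2447 in LINC00673 cells and 1002 in NC cells, and nearly all came from the large block. The 9 miRNA names of the small block, from MIR493 (chr14:100869060-100869148, GRCh38) to MIR370 (chr14:100911139-100911213), gave 3 rows with 4 reads together, 1 in LINC00673 cells and 3 in NC cells. These were 1 read of miR-432-5p in LINC00673 sample 2, and 2 reads of miR-127-3p and 1 of miR-493-3p in NC sample 1. MIR127 (chr14:100882979-100883075) and MIR432 (chr14:100884483-100884576) lie opposite an exon of RTL1. In mouse, miR-127 directs cleavage of the Rtl1 transcript. At 2 reads over 6 samples, its level in U2OS was below the floor of 3 reads in every sample.

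The large block begins 110.852 kb further on and spans 44.736 kb, from MIR379 (chr14:101022066-101022132) to MIR656 (chr14:101066724-101066801), with 38 precursor genes, all on the plus strand. It gave 52 of the 55 rows and 3445 of the 3449 reads, 2446 in LINC00673 cells and 999 in NC cells. Levels within it were uneven. Of the 55 members, 16 had a mean of at least 10 CPM over the 6 samples and together held 91.6% of the members' CPM, 20 had reads in all 6 samples, and 29 had fewer than 10 reads in all samples together. The 4 most abundant, miR-382-5p, miR-379-5p, miR-409-3p and miR-134-5p, held 55.6%. Adapter ligation in small RNA kits favours some sequences, so the order of different miRNAs is an order of read levels and not of molecules.

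**Figure D1:**
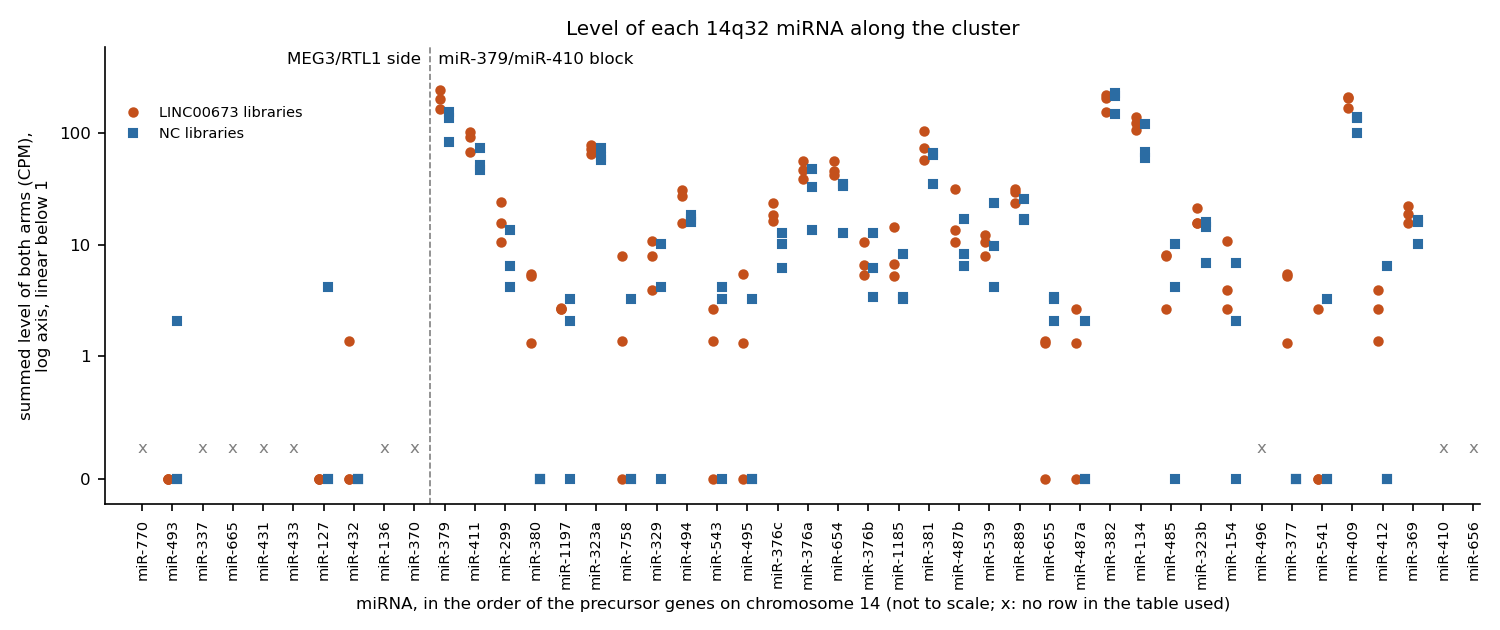
Summed CPM of both arms for each of the 45 miRNA names (y axis, log scale above 1 CPM and linear below) in the order of their precursor genes on chromosome 14, not to scale, with a circle for each LINC00673 sample, a square for each NC sample and an x for a name with no row. The most abundant names (miR-379, miR-382, miR-134 and miR-409) are spread over the large block right of the dashed line, and the 3 names with values left of it hold 4 reads in all.

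Over all 6 samples the most abundant member was miR-382-5p at 186 ± 33.1 CPM (SD, n = 6), which ranked 130 among the 1155 miRNAs. It was followed by miR-379-5p at 166 ± 55.0 CPM, miR-409-3p at 154 ± 40.2 CPM and miR-134-5p at 104 ± 32.8 CPM. The first 3 differed by less than these SDs. A second tier held miR-411-5p (72.2 ± 22.1 CPM), miR-323a-3p (68.4 ± 7.81 CPM) and miR-381-3p (67.4 ± 22.9 CPM), which likewise could not be ordered beyond their spread. Next came miR-376a-3p (38.5 ± 14.7 CPM) and miR-654-3p (37.7 ± 14.7 CPM), then miR-889-3p (24.0 ± 6.26 CPM), miR-494-3p (21.0 ± 6.58 CPM) and miR-323b-3p (15.1 ± 4.76 CPM). Position did not order the levels: Spearman's rho between the start of the precursor and the mean level was -0.08 over the 16 members of at least 10 CPM, which share the same 6 libraries.

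The series compares cells given an shRNA against LINC00673 with NC cells, and the same comparison was made for these miRNAs. Summed over the 55 members, the level was 1128, 1382 and 1301 CPM in LINC00673 samples 1, 2 and 3, against 921, 1040 and 788 CPM in NC samples 1, 2 and 3. All 3 LINC00673 sums lay above all 3 NC sums, with means of 1270 ± 130 CPM in LINC00673 cells and 916 ± 126 CPM in NC cells (SD, n = 3 each). As a share of the listed miRNAs the members took 0.161 to 0.192% in LINC00673 cells and 0.110 to 0.150% in NC cells. CPM from bulk RNA is relative, so fewer cells with a transcript and less RNA per cell cannot be told apart, and neither can a shift in other abundant RNAs. The summed 3p members gave 573, 649 and 618 CPM in LINC00673 cells, against 424, 417 and 426 CPM in NC cells, without overlap. The summed 5p members gave 549.6, 729 and 680.5 CPM in LINC00673 cells, against 490.4, 616 and 362 CPM in NC cells, which overlapped. The 5p sum holds miR-382-5p, at means of 183 CPM in LINC00673 cells and 188 CPM in NC cells. Among members of at least 10 CPM, the median log2 difference (LINC00673 minus NC) was 0.63 for the 4 of 5p and 0.53 for the 12 of 3p. A difference between the arms in this respect was not tested.

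**Figure D2:**
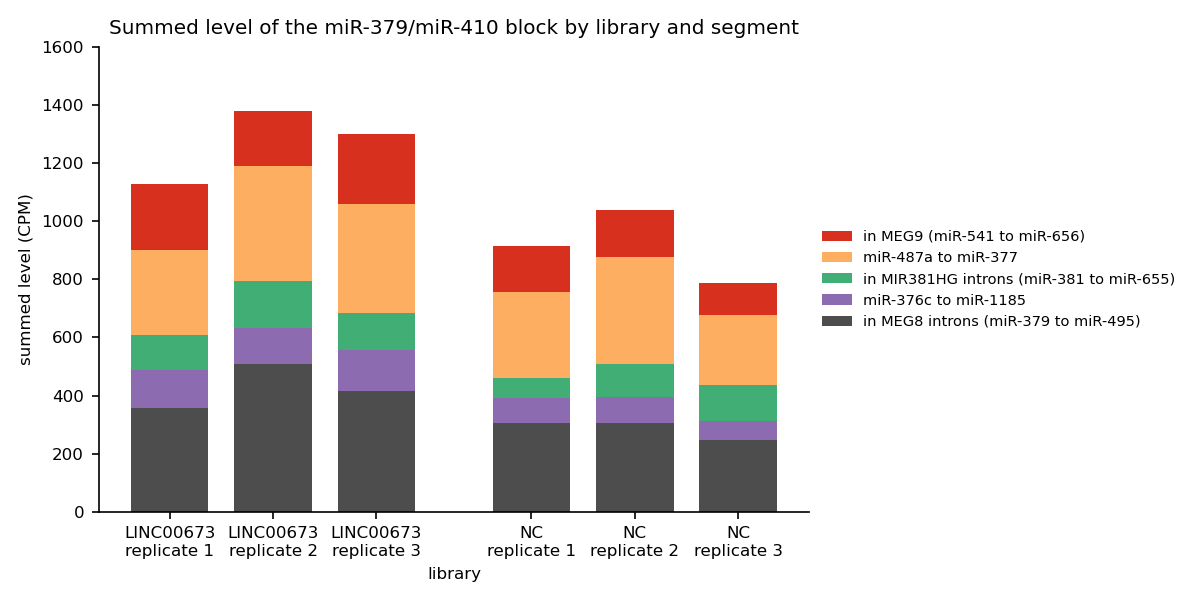
Summed CPM of the large block in each sample, stacked by the 5 segments between and within the noncoding host genes. The 3 LINC00673 bars at the left reach 1128 to 1381 CPM and the 3 NC bars 788 to 1040 CPM, and every segment is present in every bar.

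No single member passed the test. On log2(CPM + 1), limma with Benjamini-Hochberg adjustment over the 810 miRNAs of at least 1 CPM called 0 of the 38 members tested higher in LINC00673 cells and 0 lower, where it called 0.247% of all 810 higher and 0% lower. edgeR on the recovered reads called 0 members in either direction, against 1.85% of all higher and 0.864% lower, and DESeq2 also called 0, against 0.617% higher and 1.23% lower. DESeq2 gave an adjusted p to 7 of the 38 members and to 213 of the 810, so the other 31 members had no adjusted value from it. Without adjustment, p was under 0.05 in limma for 7 of the 38 (18.4%), all higher in LINC00673 cells, where the share over all miRNAs was 6.67% higher and 4.44% lower. These 7 were miR-134-5p, miR-299-5p, miR-376c-3p, miR-379-5p, miR-380-5p, miR-409-3p and miR-654-3p. Of them, miR-299-5p and miR-380-5p had 0 reads in NC cells, so they passed the 1 CPM limit, and entered these counts, through LINC00673 cells alone. In edgeR the unadjusted count was 9, namely the same 7 with miR-381-3p and miR-411-5p (8.89% of all higher, 3.95% lower), and in DESeq2 it was 2, miR-379-5p and miR-409-3p (3.09% of all higher, 3.46% lower).

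The members' differences leaned to one side. The median log2 difference (LINC00673 minus NC) was 0.55 over the 38 members tested, against 0.06 over all 810, and 32 of the 38 lay above 0, where 53.2% of all did. The tested members all lie in the large block and share the same 6 libraries, so counts of them are not counts of independent observations. Members of low level can pass the 1 CPM limit through the group in which they are higher. Among the 16 members of at least 10 CPM, which all had reads in every sample, the median was 0.56, against 0.07 over the 362 miRNAs of that level. This limit too is on the mean over the 6 samples. At NC means of 5.83 and 9.91 CPM, miR-376c-3p and miR-382-3p passed it through LINC00673 cells. Of these 16, 14 lay above 0 (56.1% of the 362 did) and 11 above 0.5 (18.2% of the 362). All 3 LINC00673 samples lay above all 3 NC samples for 4 of the 16, miR-376c-3p, miR-379-5p, miR-409-3p and miR-654-3p, where 10.8% of the 362 were so placed, and all 3 lay below for 0, where 9.94% were. LINC00673 sample 2 was the highest sample for 9 of the 16 and LINC00673 sample 3, the deepest, for 3. NC sample 3, the shallowest, was the lowest for 6, and NC samples 1 and 2 for 4 each. These counts were not made over the 362, so they do not show whether such an order is particular to the members. The part of depth in these orders was not tested.

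**Figure D3:**
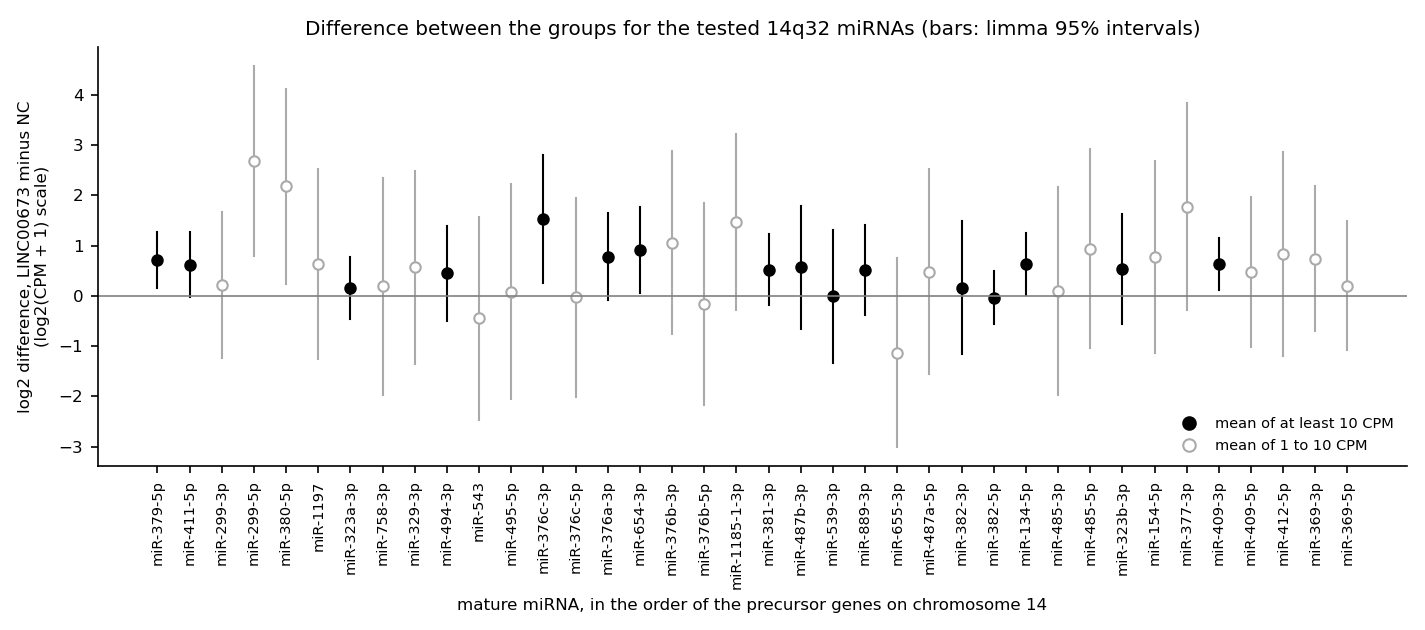
Log2 difference (LINC00673 minus NC, on log2(CPM + 1)) of the 38 tested members in the order of their precursor genes, with 95% intervals from limma, filled for members of at least 10 CPM and open for those of 1 to 10 CPM. Of the points 32 lie above 0, the intervals of the open points are wide, and no member passed the adjusted threshold of 0.05.

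The first gene of the large block, MIR379, gave the second most abundant member over the 6 samples. miR-379-5p stood at 166, 245 and 203.2 CPM in LINC00673 samples 1, 2 and 3, against 157, 138 and 84.6 CPM in NC samples 1, 2 and 3. The groups did not overlap, but LINC00673 sample 1 was within 10 CPM of NC sample 1. The log2 difference was 0.72 ± 0.27 (SE) with an adjusted p of 0.255 in limma, 0.0770 in edgeR and 0.211 in DESeq2. Leaving out NC sample 3, the lowest, gave 0.45. Its neighbour miR-411-5p, from MIR411 (chr14:101023325-101023420), stood at 68.4, 102 and 91.8 CPM in LINC00673 cells, against 49.7, 73.9 and 47.4 CPM in NC cells. LINC00673 sample 1 lay below NC sample 2, so the groups overlapped, and the log2 difference of 0.62 ± 0.31 had an adjusted p of 0.455 in limma.

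Near the other end of the block, MIR409 (chr14:101065300-101065378) lies in an intron of MEG9 as GENCODE draws that gene. miR-409-3p stood at 197, 168 and 198 CPM in LINC00673 cells, against 132, 132 and 98.1 CPM in NC cells. All 3 LINC00673 samples lay above the NC samples, with means of 188 ± 16.9 CPM in LINC00673 cells and 121 ± 19.6 CPM in NC cells (SD, n = 3 each). The log2 difference was 0.64 ± 0.25 (SE), with an adjusted p of 0.263 in limma, 0.132 in edgeR and 0.211 in DESeq2.

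The member most abundant over the 6 samples, miR-382-5p, did not separate the groups. It had the highest mean in NC cells, 188 CPM. In LINC00673 cells its mean of 183 CPM was below those of miR-379-5p (205 CPM) and miR-409-3p (188 CPM). miR-382-5p stood at 149.9, 189 and 209.8 CPM in LINC00673 cells, against 199, 225 and 142 CPM in NC cells. The groups overlapped fully, with the lowest and the highest value both in NC cells, and the log2 difference was -0.03 ± 0.25 (adjusted p = 0.988 in limma), with a 95% interval from -0.55 to 0.49. Its precursor gene MIR382 (chr14:101054306-101054381) lies less than 1 kb before MIR134 (chr14:101054687-101054759). miR-134-5p, which limits dendritic spine size through Limk1 in rat neurons, stood at 108, 141 and 123 CPM in LINC00673 cells, against 60.0, 122 and 67.7 CPM in NC cells. NC sample 2 lay within the LINC00673 values and the other 2 NC samples below them, for a log2 difference of 0.63 ± 0.30 (adjusted p = 0.425 in limma). The difference between these 2 neighbours was not itself tested.

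In the second tier, miR-323a-3p stood at 65.7, 78.1 and 72.1 CPM in LINC00673 cells, against 62.1, 57.8 and 74.4 CPM in NC cells. The groups overlapped, and the log2 difference was 0.16 ± 0.30 (adjusted p = 0.933 in limma), or 0.0783 to 0.26 without each sample. miR-381-3p, from an intron of its host gene MIR381HG, stood at 57.9, 105 and 74.7 CPM in LINC00673 cells, against 35.2, 67.4 and 64.3 CPM in NC cells. LINC00673 sample 1 lay among the NC values, and the log2 difference was 0.52 ± 0.34 (adjusted p = 0.628 in limma). It was 0.29 without LINC00673 sample 2 and 0.22 without NC sample 1.

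**Figure D4:**
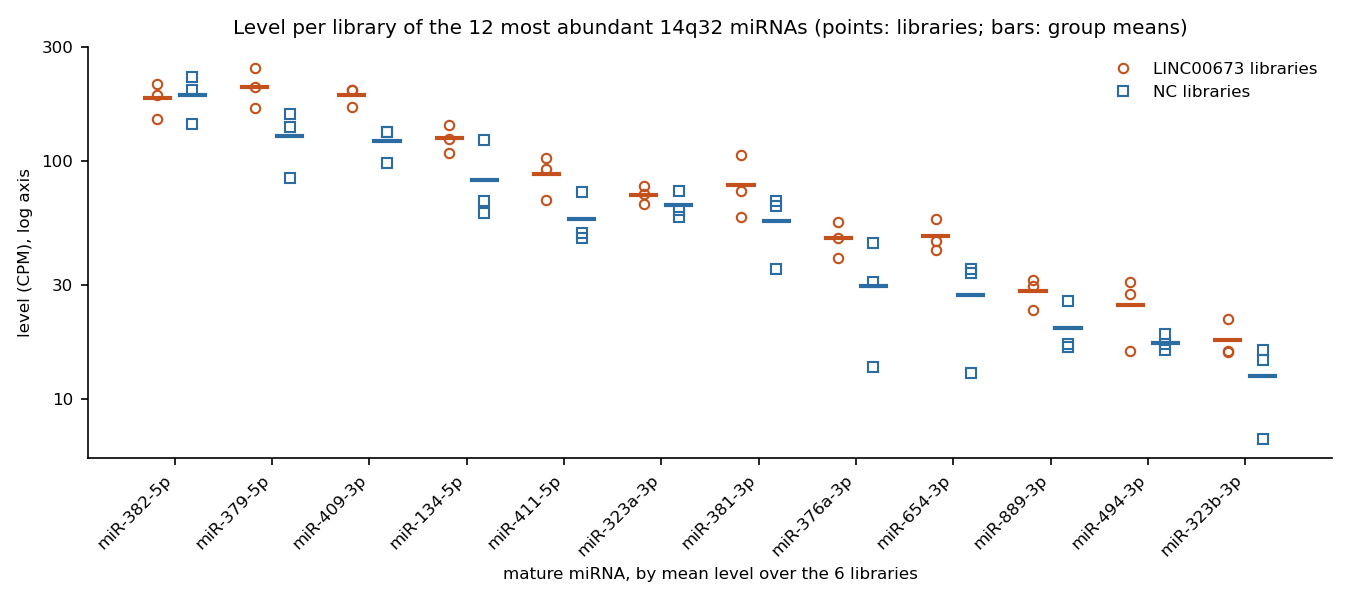
CPM on a log axis in every sample for the 12 most abundant members, ordered by mean level, with open circles for LINC00673 samples, open squares for NC samples to their right, and horizontal bars for the group means (n = 3 each). For miR-379-5p, miR-409-3p and miR-654-3p all LINC00673 points lie above all NC points, and for miR-382-5p the groups overlap, at means of 183 CPM in LINC00673 cells and 188 CPM in NC cells.

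The genes MIR376C, MIR376A2, MIR654, MIR376B and MIR376A1 lie within a stretch from chr14:101039690-101040849 with no host gene on either strand in GENCODE. The miR-376 family is known for adenosine-to-inosine editing in the seed in brain, which a table of counts by name cannot show. miR-376c-3p stood at 21.0, 13.5 and 17.1 CPM in LINC00673 cells, against 4.14, 3.21 and 10.2 CPM in NC cells. All LINC00673 samples lay above all NC samples, on 31 reads in LINC00673 cells and 6 in NC cells. Its log2 difference of 1.53 ± 0.62 was the largest among the 16 members of at least 10 CPM (adjusted p = 0.304 in limma and 0.182 in edgeR). At a mean of 5.83 CPM in NC cells, miR-376c-3p passed that limit through LINC00673 cells, so the filter favoured this rank. miR-376a-3p, whose 2 precursor genes give the same mature sequence and cannot be told apart, stood at 47.3, 39.1 and 55.1 CPM in LINC00673 cells, against 31.0, 44.95 and 13.5 CPM in NC cells. NC sample 2 lay above LINC00673 sample 2, and the log2 difference was 0.78 ± 0.42 (adjusted p = 0.509 in limma). Without NC sample 3 it was 0.31.

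Within the same stretch, miR-654-3p stood at 42.1, 56.6 and 45.9 CPM in LINC00673 cells, against 35.2, 12.8 and 33.8 CPM in NC cells. The groups did not overlap, and NC sample 2 lay far below the other NC samples. The log2 difference was 0.91 ± 0.41 (adjusted p = 0.398 in limma and 0.214 in edgeR), and 0.46 without NC sample 2. miR-376c-3p and miR-376a-3p differ by 2 bases and miR-376a-3p and miR-376b-3p by 2, and the sources used here do not give how reads matching several names were counted, so their levels may share reads.

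The other members of the 12 most abundant overlapped between the groups. miR-889-3p stood at 23.7, 29.6 and 31.5 CPM in LINC00673 cells, against 16.6, 25.7 and 16.9 CPM in NC cells. miR-494-3p stood at 15.8, 31.0 and 27.5 CPM in LINC00673 cells, against 18.6, 16.1 and 16.9 CPM in NC cells. miR-323b-3p, which is 3 edits from miR-323a-3p, stood at 15.8, 21.6 and 15.7 CPM in LINC00673 cells, against 14.5, 16.1 and 6.77 CPM in NC cells. Their log2 differences were 0.52, 0.45 and 0.54, with adjusted p-values in limma of 0.739, 0.830 and 0.812. For miR-494-3p the difference was 0.27 without LINC00673 sample 2 and 0.73 without LINC00673 sample 1, and for miR-323b-3p it was 0.19 without NC sample 3.

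The remaining 3 members of at least 10 CPM rested on few reads. miR-487b-3p averaged 16.7 ± 10.6 CPM in LINC00673 cells and 10.5 ± 5.60 CPM in NC cells (SD, n = 3 each), with the highest value, 28.9 CPM, in LINC00673 sample 1. miR-539-3p averaged 10.2 ± 2.13 CPM in LINC00673 cells and 12.5 ± 10.1 CPM in NC cells, where NC sample 3 alone reached 23.7 CPM. miR-382-3p averaged 11.5 ± 6.86 CPM in LINC00673 cells and 9.91 ± 5.75 CPM in NC cells. In each the groups overlapped, with log2 differences of 0.57, -0.00 and 0.17 and adjusted p-values in limma of at least 0.830. For miR-487b-3p the difference was 0.12 without LINC00673 sample 1, 0.31 without NC sample 2 and 0.94 without NC sample 3.

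Members below 10 CPM rested on few reads, and the samples differed in depth. Of the 55 members, 12 had reads in LINC00673 cells alone, at most 10 reads each, 5 had reads in NC cells alone, at most 2 reads each, and 38 had reads in both. These shares, 21.8% in LINC00673 cells alone and 9.09% in NC cells alone, were near those over all 1155 rows, 20.3% and 9.52%. The number of members with a read was 37, 43 and 42 in LINC00673 samples 1, 2 and 3, against 36, 31 and 27 in NC samples 1, 2 and 3. Over all miRNAs it was 683, 861 and 835 in LINC00673 samples, against 737, 689 and 661 in NC samples. Calculated for an equal depth of 295567 reads, the expected numbers were 34.4, 34.1 and 31.9 in LINC00673 cells, against 30.7, 30.5 and 27 in NC cells. At equal depth the gap between the groups was smaller than in the raw counts. All 3 LINC00673 numbers still lay above all 3 NC numbers, with LINC00673 sample 3 and NC sample 1 about 1 member apart. The same calculation was not made over all miRNAs, and the part of depth was not tested.

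Over all 38 tested members, all 3 LINC00673 samples lay above all 3 NC samples for 6, where 7.78% of the 810 were so placed, and below for 1, where 7.65% were. Besides the 4 named above, the higher ones were miR-299-5p and miR-380-5p, both listed at 0 in every NC sample. miR-299-5p stood at 10.5, 2.69 and 5.24 CPM in LINC00673 cells, which is 10 reads, against 0 reads in NC cells. Its pooled level of 5.30 CPM in LINC00673 cells was 1.93 times a floor of 3 reads over the NC group, leaving out counting error in the 10 reads. Its adjusted p was 0.193 in limma and 0.167 in edgeR. miR-380-5p, known to repress p53 in neuroblastoma, stood at 5.26, 5.39 and 1.31 CPM in LINC00673 cells, against 0 reads in NC cells. Its 7 reads came to 1.35 times the same floor, again without counting error, so neither ratio is a lower bound on the fold. The adjusted p of miR-380-5p was 0.362 in limma. Both members passed the 1 CPM limit through LINC00673 cells alone.

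miR-655-3p, from the last gene in MIR381HG, was the member with all LINC00673 samples below all NC samples. It stood at 0, 1.35 and 1.31 CPM in LINC00673 cells, against 2.07, 3.21 and 3.38 CPM in NC cells. These levels were 2 reads in LINC00673 cells and 3 in NC cells, each value above 0 being 1 read, and the adjusted p was 0.718 in limma. Its log2 difference was -1.13, or -0.72 without LINC00673 sample 1.

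By segment of the large block, the groups separated in the parts at both ends and in the miR-376 stretch. The segments follow the host genes of GENCODE. RefSeq draws MEG8 (chr14:100889649-100999113) as ending before MIR379 and MEG9 (chr14:101069911-101072937) as starting after MIR656, so the names of 2 segments depend on the annotation. GENCODE places 12 precursor genes, from MIR379 to MIR495, in introns of MEG8. Their members summed to 358, 509 and 416 CPM in LINC00673 cells, against 304, 305 and 247 CPM in NC cells. The 7 genes from MIR376C to MIR1185-2, with no host gene, summed to 129, 124 and 142 CPM in LINC00673 cells, against 89.0, 89.9 and 64.3 CPM in NC cells. The 6 genes from MIR541 to MIR656, within MEG9 in GENCODE, summed to 229, 191 and 241 CPM in LINC00673 cells, against 157, 164 and 112 CPM in NC cells. In these 3 segments the groups did not overlap, although each sum leans on few members, miR-379-5p in the first and miR-409-3p in the last.

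In the other 2 segments the groups overlapped. The 5 genes from MIR381 to MIR655 in introns of MIR381HG summed to 121, 162 and 129 CPM in LINC00673 cells, against 66.2, 112 and 125 CPM in NC cells. The 8 genes from MIR487A to MIR377, which include MIR382 and MIR134, summed to 292, 395 and 374 CPM in LINC00673 cells, against 298, 369 and 240.2 CPM in NC cells. The median log2 difference of the members of at least 10 CPM was 0.54 in the MEG8 introns (4 members), 0.91 in the miR-376 stretch (3), 0.52 in the MIR381HG introns (4), 0.35 from MIR487A to MIR377 (4) and 0.64 in MEG9 (1). The median of the miR-376 stretch includes miR-376c-3p and that from MIR487A to MIR377 includes miR-382-3p. Both passed the 10 CPM limit through LINC00673 cells, at NC means of 5.83 and 9.91 CPM, so these medians depend on the filter. No test of a difference between segments was run. Across the 16 members, Spearman's rho with the log2 difference was -0.22 for the start of the precursor, 0.11 for the mean level and 0.07 for the GC content of the mature sequence, all weak and over points that share the same 6 libraries.

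Arm use differed widely between precursors, and no difference between the groups passed the test. For 17 precursor names both arms were listed. The precursor hsa-miR-379 gave 99.8% of its reads from the 5p arm, with 1 read of 3p in all, hsa-miR-411 gave 233 reads of 5p and 2 of 3p, and hsa-miR-382 gave 565 of 5p and 36 of 3p. The opposite held for hsa-miR-409, with 25 reads of 5p and 485 of 3p, and for hsa-miR-376a, with 2 and 122, leaving out 1 read in NC cells that is listed under miR-376a-2-5p. Near balance was hsa-miR-369, with 28 reads of 5p and 25 of 3p. In pooled reads the dominant arm differed between the neighbours hsa-miR-411 and hsa-miR-299, which gave 10 reads of 5p and 30 of 3p. Of these 30, 16 were in LINC00673 sample 2. The 5p share of hsa-miR-299 was 66.7%, 11.1% and 50% in LINC00673 samples 1, 2 and 3, and 0% in each NC sample. A 3p excess was thus not seen in every sample. The 5p share of miR-382 was 93.7% in LINC00673 cells (exact 95% interval 90.8 to 95.9%) and 94.5% in NC cells (90.7 to 97.2%). That of miR-409 was 4.88% in LINC00673 cells (2.92 to 7.60%) and 4.96% in NC cells (2.02 to 9.96%). Intervals cover counting error only.

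**Figure D5:**
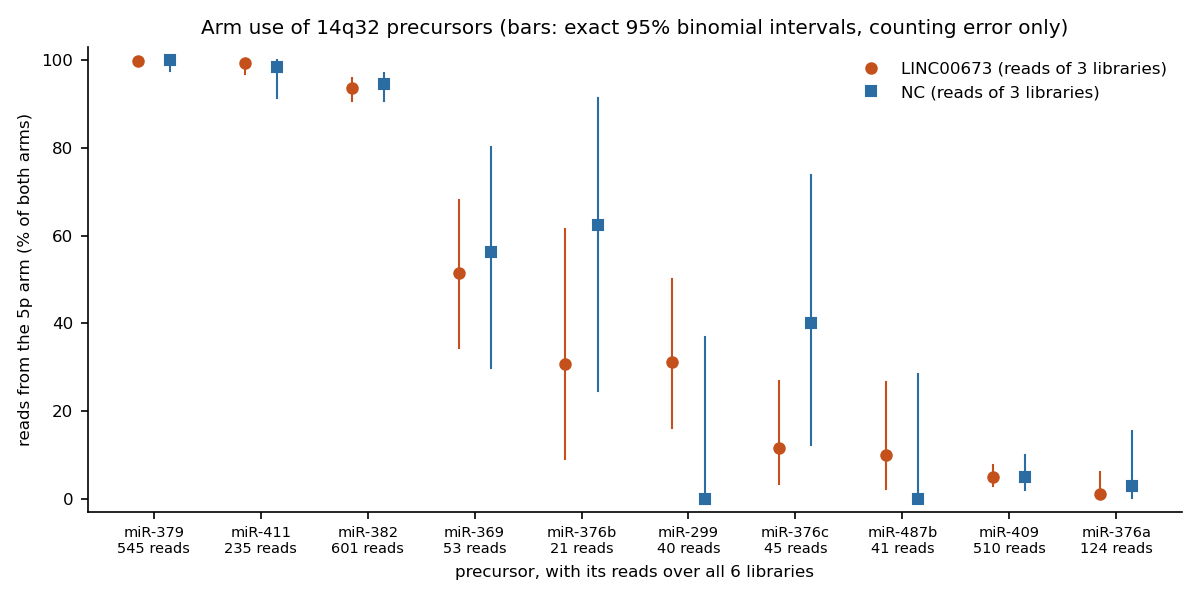
Share of reads from the 5p arm (percent of both arms, reads of the 3 samples of a group pooled) for the precursors with at least 20 reads, with circles for LINC00673, squares for NC to their right and exact 95% binomial intervals. In both groups miR-379, miR-411 and miR-382 lie above 90% and miR-409 and miR-376a (without miR-376a-2-5p) below 5%, and the intervals of precursors with few reads are wide.

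The log2 ratio of 5p to 3p was tested in limma over 184 precursor names of all listed miRNAs, 7 of them members, and called 0 of 184 (0%) after adjustment, against 8.7% at an unadjusted p under 0.05. The largest difference among the 7 was in miR-299, where the ratio was 2.46 ± 0.98 higher on the log2 scale in LINC00673 cells (unadjusted p in limma 0.0450, adjusted p = 0.517). This rests on 10 of 32 reads from the 5p arm in LINC00673 cells, or 31.3% (16.1 to 50.01%). In NC cells it was 0 of 8, with an exact upper limit of 36.9%, so the intervals overlapped. Each arm needed a mean of at least 1 CPM to be tested. The 5p arm of miR-299 reached it through LINC00673 cells alone, so the filter favoured this direction. For miR-382 the log2 ratio differed by -0.20 ± 0.56, with a 95% interval from -1.56 to 1.16, and for miR-409 by -0.17 ± 0.59, with an interval from -1.62 to 1.28. Neither interval excludes a doubling in either direction at this depth.

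Beyond the listed members, 1 further miRNA of the imprinted region and 7 rows of miRNAs encoded elsewhere on chromosome 14q were set beside them. miR-668-3p, of the imprinted region, was listed at 0, 2.69 and 2.62 CPM in LINC00673 cells and at 0 in the 3 NC samples. Both values above 0 lay below the floor of 3 reads, 4.04 CPM in LINC00673 sample 2 and 3.93 CPM in LINC00673 sample 3. The row fell under the limit of 1 CPM and was not tested. miR-345-5p, whose gene is outside the imprinted region, stood at 39.4, 33.7 and 35.4 CPM in LINC00673 cells, against 16.6, 25.7 and 13.5 CPM in NC cells. Its groups did not overlap, and its log2 difference of 0.97 ± 0.42 (adjusted p = 0.372 in limma) was larger than that of most members. miR-342-3p averaged 1037 ± 172 CPM in LINC00673 cells and 862 ± 259 CPM in NC cells (SD, n = 3 each), a log2 difference of 0.30. miR-203a-3p averaged 409 ± 14.7 CPM in LINC00673 cells and 445 ± 147 CPM in NC cells, a log2 difference of -0.07. miR-151b averaged 8.01 ± 7.18 CPM in LINC00673 cells and 15.8 ± 11.4 CPM in NC cells, a log2 difference of -0.997 ± 0.69 (adjusted p = 0.653 in limma), and that of miR-342-5p was -0.22. None of the 5 tested rows of this set passed limma at an adjusted p of 0.05, and 1, miR-345-5p, had an unadjusted p under it.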

How the data were processed

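Small RNA libraries were made from TRIzol-isolated RNA with a NEBNext small RNA kit, per the labels' protocols. The authors deposited a CPM value (reads scaled to a common total) per mature miRNA and sample. The submitters' processing notes name the build hg38. For the aligner, counter and miRBase release, nothing is given in the sources used here. Between 68.6% and 72.0% of each sample's total fell on listed miRNAs, and other reads made up the rest of the denominator. Of the values, 100% came out as whole reads within 0.1 read.

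A mean of at least 1 CPM left 810 miRNAs, which were fitted on log2(CPM + 1) in limma 3.58.1 (R 4.3.3). The variance prior had an intensity trend, tests were two-sided, and adjusted p-values (Benjamini-Hochberg) under 0.05 were called. On this scale the change of a low miRNA is understated. edgeR 4.0.16 (quasi-likelihood) and DESeq2 1.42.0 were run on the recovered reads as alternatives. On those reads edgeR called 22 miRNAs and DESeq2 15, none of them a member. Arm ratios were fitted in limma on log2 5p minus log2 3p. Scripts were tested on simulated data. Precursor positions and sequences came from RefSeq (GRCh38.p14) and hosts from GENCODE (GRCh38).

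Values are given in every sample for the 12 most abundant members, for members whose groups did not overlap and for those past an unadjusted limma p of 0.05, with statistics for all members of at least 10 CPM. The others are given as counts and ranges. Members and lists were chosen with earlier results of these data known.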

Additional observations from a re-analysis of the deposited data

How the results depend on the processing

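No member passed an adjusted p of 0.05 in limma under any alternative run, nor in edgeR or DESeq2, and no arm ratio did. Over all miRNAs the count of calls was 2 and moved with nearly every choice, to 0 with a pseudocount of 0.5, with a minimum mean of 10 CPM, after rescaling to the listed miRNAs, after quantile normalization or without the trend, to 8 with a pseudocount of 5, to 11 without a filter, to 1 with identical rows merged, to 22 in edgeR and to 15 in DESeq2. Leaving out each sample gave 0 to 0. TMM scaling gave 3. The members' median log2 difference of 0.55 was 0.33 with a pseudocount of 5, and 0.48 to 0.64 when each sample was left out. The difference of the summed levels, 353.8 CPM, was 289.8 to 424.9 CPM without each sample. Over the alternatives the adjusted p of miR-379-5p ranged from 0.0770 to 0.787, that of miR-409-3p from 0.132 to 0.709, that of miR-376c-3p from 0.148 to 0.709, that of miR-654-3p from 0.214 to 0.808 and that of miR-299-5p from 0.154 to 0.633.

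Of 373 alternative values for 21 named members, 355 kept their direction and 18 reversed, in 4 members with differences near 0, for which the cause was not tested. Over all 38 tested members 34 of 659 alternative values had the other sign, in 11 members, and 28 to 35 of the 38 lay above 0 in each alternative that tested all of them. For miR-539-3p the log2 difference was 0.0113 with a pseudocount of 0.5, 0.0904 with TMM, 0.0688 with quantile normalization and -0.55 to 0.58 without each sample. For miR-382-5p it was 0.0715 with TMM, 0.0632 in edgeR and -0.22 to 0.11 without each sample. For miR-376c-5p it was 0.16 with a pseudocount of 0.5, 0.0314 after rescaling to the listed miRNAs, 0.0458 with TMM and -0.86 to 0.84 without each sample. For miR-382-3p it was -0.24 to 0.59 without each sample.

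With the replicate number as a block, limma called 2 miRNAs and 0 members. Same-numbered samples deviated with correlations of 0.029, 0.068 and 0.011 over 810 miRNAs, where LINC00673 sample 3 correlated more with NC sample 1 (0.04). Over the 362 miRNAs of at least 10 CPM the correlations were 0.121, 0.155 and 0.026, each above those of unlike numbers, a hint from the data. Not every pair was over 0.1 in either set, so no pairing was assumed. With 295567 to 762663 reads per sample, 29 members had fewer than 10 reads in all.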
